A study of Mus musculus with 14 samples.

Results

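The unfolded protein response and the folding machinery of the endoplasmic reticulum (ER) were followed through treatment and relapse in leukemic progenitors sorted from 14 mice, with 1 RNA library per mouse. The group consists of 36 genes listed by name: 5 sensors and transcription factors, 10 chaperones and cochaperones, 7 disulfide enzymes, 11 degradation genes and 3 translocon genes. They were looked up by Ensembl identifier among the 52636 identifiers of the count table. Of these members, 35 were among the 11994 genes with enough counts for a test, and Derl3, a degradation factor with 11 counts in all libraries together and at most 3 in any of them, was not.

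All mice carried transplanted I1DN cells, the labels' name for a mouse leukemia whose mutant IDH1 is the drug's target, and received either vehicle or AG120 (ivosidenib), an inhibitor of mutant IDH1. Relapse libraries came from 4 mice that had AG120 for 28 days and whose disease then returned. AG120 libraries came from 3 mice treated for 5 days and 2 mice treated for 14 days, and vehicle libraries from 3 mice at 5 days and 2 mice at 14 days. Not given in the sources used here were mouse strain, sex and age, the further alleles of the I1DN cells, and the time between the end of treatment and relapse. Vehicle mice kept until relapse were not analysed here.

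Each mouse gave cells sorted for cKit and against CD11b, and QuantSeq read each RNA near its 3′ end, so a count does not grow with transcript length and cannot show the splice form of Xbp1. Libraries held 4995738 to 8691708 counts, of which ribosomal RNA gene models took 50.9% to 74.8%. Levels are given as CPM, counts scaled by the library total, and differences as log2 fold changes from edgeR's quasi-likelihood test ± SE, with p-values adjusted by Benjamini-Hochberg over all 11994 genes and a threshold of 0.05. Kit RNA was present in every library, at 11.6 to 51.9 CPM, and so was Itgam RNA, which encodes CD11b, at 2.55 to 53.4 CPM. At day 5 Kit was at 23.6 to 33.0 CPM in AG120 and 33.4 to 37.7 CPM in vehicle, and at day 14 at 11.6 and 11.6 CPM in AG120 and 34.9 and 36.7 CPM in vehicle, where it was called lower (−1.62, adjusted p = 0.0220). Itgam was at 2.55 to 3.80 CPM in AG120 and 10.5 to 15.4 CPM in vehicle at day 5, where it was called lower (−2.02, adjusted p = 0.0103), and at 5.96 and 7.99 CPM in AG120 and 18.0 and 14.5 CPM in vehicle at day 14 (adjusted p = 0.154). Cd34 stood at 135 to 186 CPM in relapse libraries, at 4.47 to 11.4 CPM in AG120 libraries and at 126 to 146 CPM in vehicle libraries.

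Proteins that enter the secretory pathway fold in the ER, and when unfolded protein accumulates there, membrane sensors signal to the nucleus and to the ribosome. IRE1 (Ern1) splices Xbp1 RNA into a form that encodes an active transcription factor, ATF6 is cut in the Golgi to release another, and PERK (Eif2ak3) phosphorylates eIF2α, which lowers translation in general and raises that of ATF4. XBP1 and ATF6 then drive genes for chaperones, oxidoreductases and ER-associated degradation. Because the sensors are switched on as proteins, their RNA levels describe the supply of the machinery and not its activity.

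Many of these targets carry the ER stress response element (ERSE), where the factor NF-Y binds CCAAT and ATF6 or XBP1 binds CCACG. The spaced letters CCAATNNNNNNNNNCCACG were searched on both strands of the RefSeq promoter windows (GRCm38.p6, 250 bases before to 50 bases after each start), which were at hand for 31 members. Windows for Atf6, Derl1, Hyou1, Manf and Sec61a1 were not used here. The element was present in 10 of the 31 members, namely Calr, Canx, Creld2, Derl3, Dnajc3, Ero1lb, Hsp90b1, Hspa5, Pdia6 and Syvn1, against 37 of 27025 genes (0.137%) in the whole table. Hsp90b1 held 2 copies. The elements of some of these members are printed 5′ to 3′ with the motif in capitals, because they include genes that changed in opposite directions under AG120.
Hspa5, chr2:34772020-34772048, plus strand, 65 bases before the start: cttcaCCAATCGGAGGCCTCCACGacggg
Calr, chr8:84847060-84847108, plus strand, 162 bases before the start: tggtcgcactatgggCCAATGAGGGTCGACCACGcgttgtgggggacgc
Canx, chr11:50325785-50325833, minus strand, 145 bases before the start: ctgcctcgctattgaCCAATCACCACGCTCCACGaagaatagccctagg
Dnajc3, chr14:118937812-118937860, plus strand, 105 bases before the start: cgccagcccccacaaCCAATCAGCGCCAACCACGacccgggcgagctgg
Ero1lb, chr13:12565667-12565715, minus strand, 201 bases before the start: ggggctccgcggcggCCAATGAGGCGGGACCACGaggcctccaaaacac
Pdia6, chr12:17266476-17266524, plus strand, 98 bases before the start: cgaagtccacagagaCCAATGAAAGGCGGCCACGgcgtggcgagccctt

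Distances run to the base of the motif that lies farthest from the start, and the Hspa5 stretch is shorter because the gene annotation used here extends over it. A second form, ERSE-II, was searched as ATTGGNCCACG, whose first letters are CCAAT on the other strand. It was present in Dnajb11 and Herpud1, and in 12 of 27025 genes (0.0444%). The site bound by XBP1 and ATF6 alone, searched as TGACGTGG and called UPRE, was present in Vcp and in 193 genes (0.714%). Herpud1 and Vcp are shown because they carry these other forms.
Herpud1 ERSE-II, chr8:94386362-94386402, plus strand, 52 bases before the start: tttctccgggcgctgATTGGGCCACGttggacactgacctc
Vcp UPRE, chr4:43000599-43000636, minus strand, 114 bases before the start: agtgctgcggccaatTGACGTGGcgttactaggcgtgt

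CCAAT alone, which every ERSE contains, was present in 25 of the 31 members and in 11096 genes (41.1%). A match describes letters in this window and no more.

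**Figure D1:**
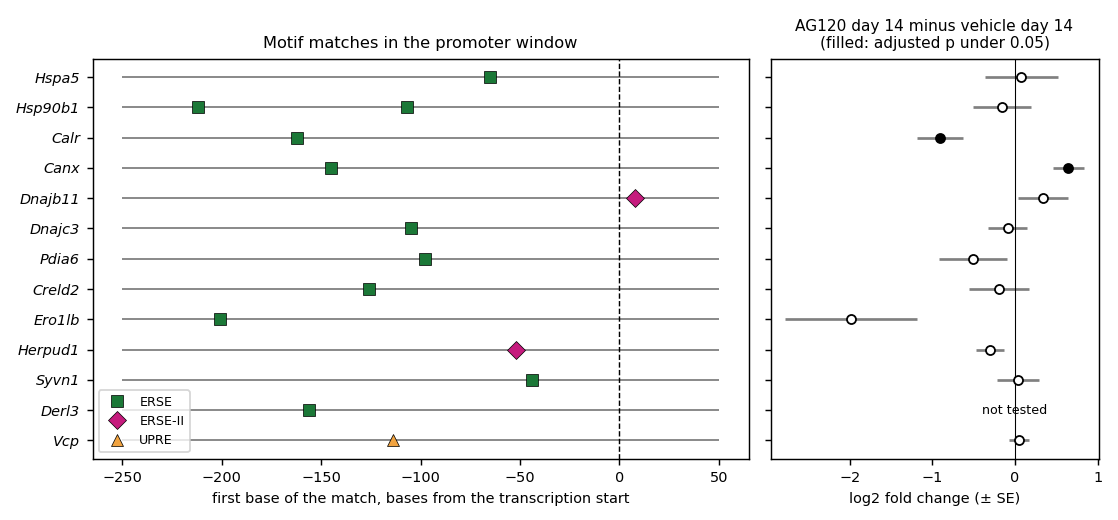
Position of ERSE, ERSE-II and UPRE matches relative to the RefSeq start (x axis, bases; 0 is the start) for the 13 members with a match, with the log2 fold change at day 14, AG120 minus vehicle, of each tested member (Derl3 was not tested). All matches but that of Dnajb11 lay within 212 bases before the start, and Calr and Canx, both with an ERSE, had changes of opposite sign, −0.91 and 0.64.

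Under AG120 the IRE1 sensor and its target Xbp1 fell and the lectin chaperone Canx and the degradation factor Derl1 rose at both times, while BiP, the chaperone at the centre of the response, did not pass the test in the fit over all libraries. At day 5, 4 of 35 members passed the test (11.4%), 2 higher and 2 lower, against 39.5% of all genes tested, 20.1% higher and 19.3% lower. At day 14, 9 members passed (25.7%), 2 higher and 7 lower, against 34.7% of all genes, 16.8% higher and 17.9% lower. In this fit over all libraries, the share of members that passed was thus below that of all genes at day 5 and somewhat below it at day 14. The 35 members had a median log2 fold change of −0.17 at day 5 and −0.16 at day 14, beside −0.00 and −0.01 for all genes tested. The signs were 12 positive and 23 negative at day 5, and 11 positive and 24 negative at day 14.

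Groups that do not overlap in CPM were counted too. At day 5 all AG120 libraries lay above all vehicle libraries for 5 members and below them for 14, against 30.2% and 29.8% of all genes. At day 14 this held for 4 members above and 18 members below, against 34.2% and 36.3% of all genes. The effect at day 14 differed from that at day 5 for 0 members by edgeR's quasi-likelihood test, against 0.934% of all genes. At an unadjusted p under 0.05 that count was also 0, as were the counts by DESeq2 and limma-voom.

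These counts depended on the libraries in the fit. In the fit over all libraries, the spread among the relapse libraries also enters the SE and p-values of AG120 against vehicle. Fits of 1 time alone leave out the relapse libraries and those of the other time, and test 10924 genes at day 5 and 10518 at day 14. With only the libraries of each comparison in the fit, 20 of 35 members passed at day 5, 4 higher and 16 lower, against 56.6% of all genes. At day 14, 16 of 35 passed, 2 higher and 14 lower, against 46.5% of all genes. In these fits the share of members that passed in either direction was near that of all genes at both times. The directions were not alike. Of the members that passed, 4 of 20 were higher at day 5 and 2 of 16 at day 14. Of all genes that passed in the same fits, 50.3% were higher at day 5 and 47.1% at day 14. This difference in direction was not tested. Without AG120 day 14 replicate 2, 4 members passed at day 14, and the count was also 4 without vehicle day 14 replicate 1.

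**Figure D2:**
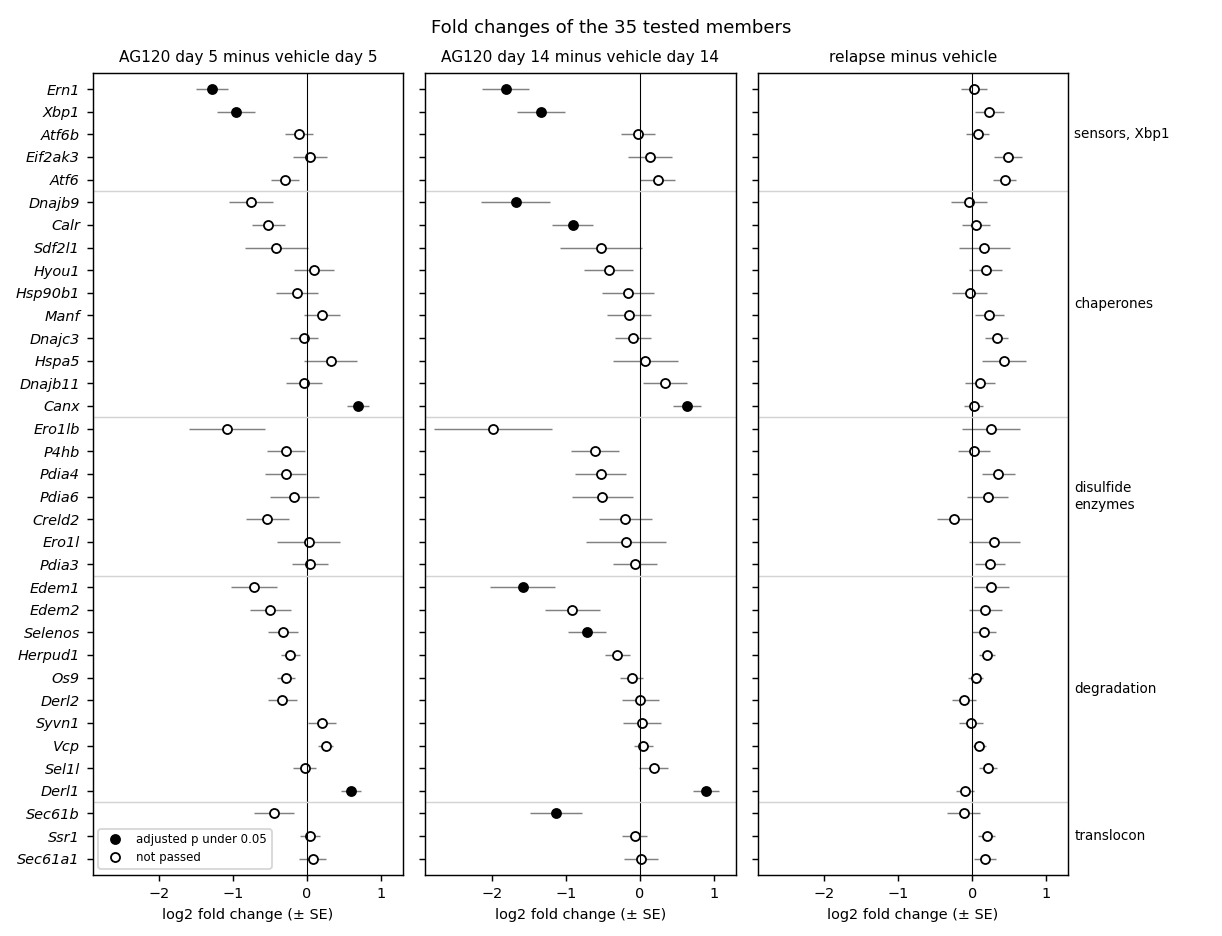
Log2 fold change ± SE of the 35 tested members, grouped by role, for AG120 against vehicle at day 5, AG120 against vehicle at day 14, and relapse against vehicle (panels left to right). Filled points had an adjusted p under 0.05 by edgeR's quasi-likelihood test. There were 4 filled points at day 5, 9 at day 14 and 0 for relapse against vehicle.

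Each library is a bulk sample, in which fewer cells of a type and less RNA per cell cannot be told apart. Erythroid marker RNAs moved with AG120: 8 of 11 were higher at day 5 and 9 of 11 at day 14, 8 of 11 were lower in relapse than under AG120, and none was at 0 throughout a group. Their summed level was 423 to 489 CPM in AG120 and 42.6 to 73.8 CPM in vehicle at day 5, 947 to 1048 CPM in AG120 and 61.8 to 76.1 CPM in vehicle at day 14, and 23.1 to 192 CPM in relapse. Neutrophil markers summed to 449.7 to 481 CPM in AG120 and 1192 to 1930 CPM in vehicle at day 5, with 4 of 10 lower. At day 14 they summed to 1424 to 1834 CPM in AG120 and 1893 to 2007 CPM in vehicle, with 1 of 10 lower, and they ranged from 697 to 2578 CPM in relapse. The day 14 sums do not show a shared fall: 6 of the 10 log2 fold changes were positive and 4 negative, with a median of 0.29. Mpo, a large part of the vehicle sums, was at 134 and 127 CPM in AG120 and 800.0 and 711 CPM in vehicle at day 14. Mast cell and basophil markers summed to 85.3 to 85.7 CPM in AG120 and 157 to 183 CPM in vehicle at day 5, and to 30.0 to 37.0 CPM in AG120 and 179.6 to 180.5 CPM in vehicle at day 14, with 2 and 4 of 7 lower. In the monocyte and macrophage list 2 of 8 markers were lower at each time, at sums of 25.1 to 29.2 CPM in AG120 and 50.2 to 69.1 CPM in vehicle at day 5, and 29.5 to 38.8 CPM in AG120 and 57.1 to 69.5 CPM in vehicle at day 14. Only Nkg7 and Gzmb of the 5 T and NK cell markers and Pecam1 of the 6 stromal and endothelial markers had enough counts for a test. Cd3e, Cd3g and Klrb1c did not exceed 0.824 CPM in any library, and Col1a1, Col1a2, Cdh5, Sparc and Cxcl12 did not exceed 1.19 CPM. Nkg7 gave most of the T and NK sum in every library. These lists therefore describe Nkg7, Gzmb and Pecam1 more than the cell types they are named for. T and NK cell markers summed to 10.6 to 12.6 CPM in AG120 and 36.9 to 46.2 CPM in vehicle at day 5, where Nkg7 was lower, and to 3.58 to 4.19 CPM in AG120 and 42.2 to 43.2 CPM in vehicle at day 14, where both genes were lower. Pecam1 was lower at both times, with log2 fold changes of −2.22 at day 5 and −2.92 at day 14. The list for the sorted cells held 4 genes, Kit, Cd34, Myb and Itgam. Itgam is not a progenitor marker, since it encodes CD11b, against which the cells were sorted. Myb was higher and Cd34 and Itgam were lower at day 5, and Kit, Cd34 and Myb were lower at day 14. The 4 genes summed to 222 to 229 CPM in AG120 and 307 to 325 CPM in vehicle at day 5. At day 14 the sums were 98.3 to 108 CPM in AG120 and 311 to 338 CPM in vehicle. The part of these cell types in the results on the ER genes was not tested. Plasma cells, which use Xbp1 heavily, were barely present by their markers: Tnfrsf17 was at 0 in every library and Sdc1, Jchain, Mzb1, Irf4 and Prdm1 did not exceed 1.22 CPM.

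Among the sensors, Ern1 encodes IRE1α, the kinase and endoribonuclease that splices Xbp1 (chromosome 11, 106394650 to 106487852, GRCm38). Its level was 12.1, 13.2, 10.7 and 13.2 CPM in the relapse libraries. At day 5 it was 3.95, 4.86 and 7.17 CPM in AG120 libraries and 10.4, 15.3 and 13.2 CPM in vehicle libraries. At day 14 it was 2.38 and 3.80 CPM in AG120 libraries and 11.1 and 11.3 CPM in vehicle libraries. All 5 AG120 libraries were low, with no overlap with vehicle or relapse libraries. Ern1 fell under AG120 by 1.29 ± 0.22 on the log2 scale at day 5 (2.44-fold, adjusted p = 0.000244) and by 1.81 ± 0.32 at day 14 (3.50-fold, adjusted p = 0.000328). In relapse it was 1.57 ± 0.20 higher than under AG120 (2.97-fold, adjusted p = 6.23e-06). Against vehicle the relapse difference was 0.02 ± 0.17 (adjusted p = 0.975), with a 95% interval of −0.36 to 0.41.

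Xbp1, the transcription factor whose RNA IRE1 splices (chromosome 11, 5520659 to 5525893), was also low under AG120. It stood at 45.8, 22.1, 28.0 and 52.6 CPM in relapse. At day 5 it was 13.8, 16.4 and 15.8 CPM under AG120 and 26.7, 29.9 and 32.8 CPM under vehicle. At day 14 it was 13.7 and 13.2 CPM under AG120 and 35.1 and 32.5 CPM under vehicle. The AG120 libraries lay below all others, and among the relapse libraries replicates 1 and 4 were high and replicate 2 was below every vehicle library. Xbp1 fell by 0.96 ± 0.25 (log2) at day 5 (1.94-fold, adjusted p = 0.00766) and by 1.33 ± 0.33 at day 14 (2.52-fold, adjusted p = 0.00574). Without AG120 day 14 replicate 2 the day 14 value missed the threshold (adjusted p = 0.0560). Relapse was 1.37 ± 0.21 above AG120 (2.59-fold, adjusted p = 7.91e-05) and differed from vehicle by 0.23 ± 0.20 (adjusted p = 0.697).

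The other sensors gave no call under AG120. Atf6, the membrane-bound factor released by cleavage in the Golgi, was at 21.7, 15.6, 15.7 and 19.0 CPM in relapse. It was at 7.90, 12.2 and 12.9 CPM in AG120 and 12.2, 14.8 and 13.6 CPM in vehicle at day 5, and at 16.7 and 14.2 CPM in AG120 and 12.4 and 13.5 CPM in vehicle at day 14. All 4 relapse libraries lay above all 5 vehicle libraries, the single member of 35 for which this held, and 0 members lay below, against 1.98% and 1.96% of all genes. The Atf6 difference between relapse and vehicle was 0.44 ± 0.15 (adjusted p = 0.263), and it was 0.47 ± 0.16 higher in relapse than under AG120 (adjusted p = 0.0182). The last call was lost without relapse replicate 1 (adjusted p = 0.0573) and without AG120 day 14 replicate 2 (adjusted p = 0.0846). Under AG120 it differed from vehicle by −0.30 ± 0.19 at day 5 (adjusted p = 0.216) and by 0.24 ± 0.24 at day 14 (adjusted p = 0.459).

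Atf6b, its paralog, was at 83.9, 44.8, 44.3 and 58.9 CPM in relapse. It was at 50.5, 48.0 and 51.8 CPM in AG120 and 50.4, 54.9 and 56.6 CPM in vehicle at day 5, and at 58.1 and 52.7 CPM in AG120 and 55.7 and 56.5 CPM in vehicle at day 14. The groups overlapped, and relapse replicate 1 was the highest library. Differences from vehicle were −0.11 ± 0.18 at day 5, −0.02 ± 0.23 at day 14 and 0.07 ± 0.15 in relapse, at adjusted p-values of 0.674, 0.959 and 0.897. Eif2ak3, the kinase PERK, stood at 9.05, 8.71, 5.77 and 8.37 CPM in relapse. It was at 5.62, 5.70 and 6.69 CPM in AG120 and 5.83, 6.51 and 5.26 CPM in vehicle at day 5, and at 7.15 and 5.19 CPM in AG120 and 4.38 and 6.62 CPM in vehicle at day 14. Here 3 relapse libraries were above all others, and relapse replicate 3 lay within the range of the AG120 and vehicle libraries. Its difference from vehicle was 0.03 ± 0.23 at day 5, 0.14 ± 0.30 at day 14 and 0.48 ± 0.19 in relapse (adjusted p = 0.924, 0.753 and 0.336). Relapse exceeded AG120 by 0.39 ± 0.20 (adjusted p = 0.100), and by 0.53 without relapse replicate 3 (adjusted p = 0.0304).

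**Figure D3:**
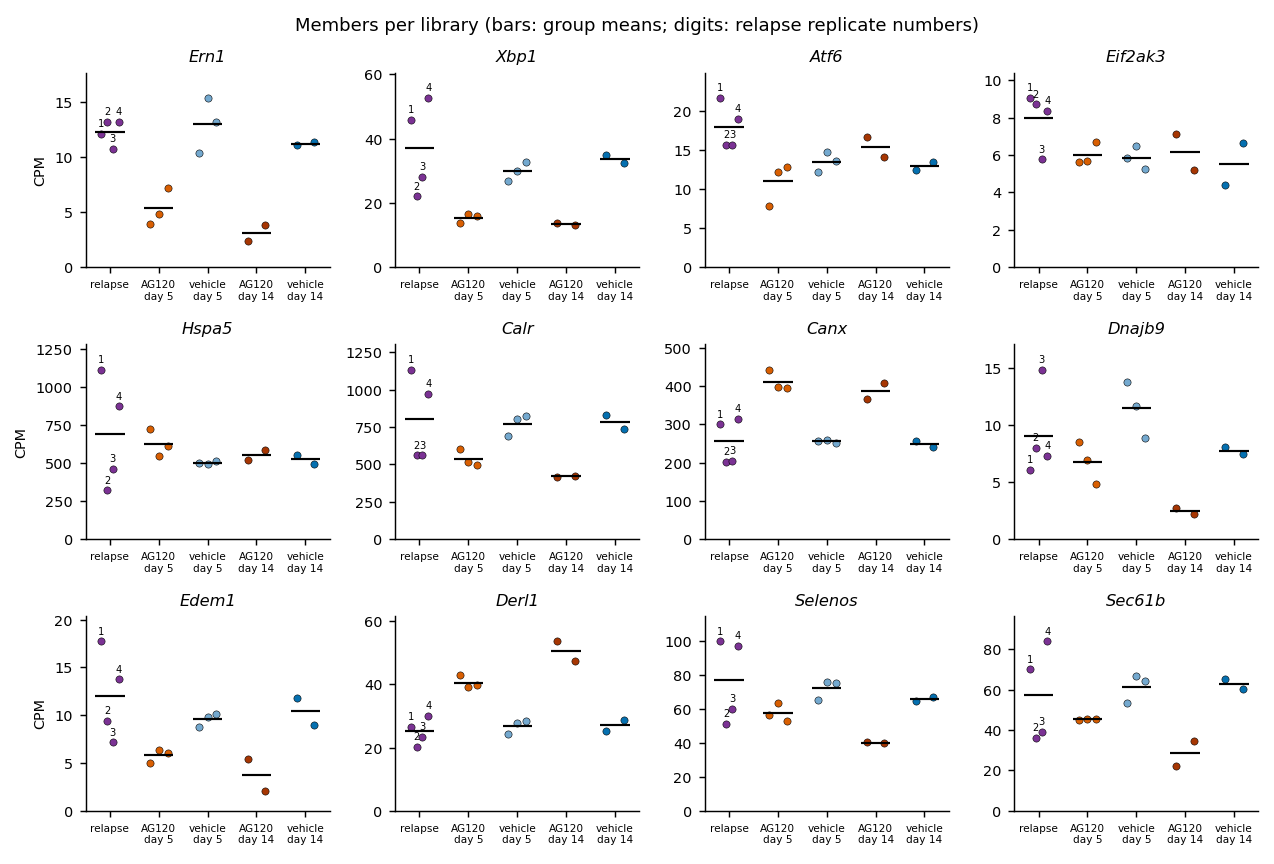
CPM of 12 members in every library (dots; bars are group means), with groups in the order relapse, AG120 day 5, vehicle day 5, AG120 day 14, vehicle day 14; digits mark the relapse replicates. Ern1 and Xbp1 were low in all 5 AG120 libraries, Canx and Derl1 were high in them, and relapse replicates 1 and 4 lay above replicates 2 and 3 for Hspa5, Calr and Sec61b.

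Among the chaperones, Hspa5 encodes BiP, the Hsp70 protein that binds unfolded chains and holds the sensors inactive (chromosome 2, 34771970 to 34777547). Its level was 1112, 319, 460.3 and 872 CPM in relapse. At day 5 it was 724, 543 and 613 CPM in AG120 libraries and 502, 494 and 511 CPM in vehicle libraries, and at day 14 518 and 586 CPM in AG120 libraries and 555 and 492 CPM in vehicle libraries. The 3 AG120 libraries at day 5 lay above the vehicle libraries, the day 14 groups overlapped, and the relapse libraries lay on both sides of vehicle. The log2 difference was 0.32 ± 0.36 at day 5 (adjusted p = 0.518) and 0.08 ± 0.44 at day 14 (adjusted p = 0.914, 95% interval −0.93 to 1.08). In the fit with the day 5 libraries alone it was 0.30 with an adjusted p of 0.00243. Relapse differed from vehicle by 0.43 ± 0.30 (adjusted p = 0.619, 95% interval −0.24 to 1.11) and from AG120 by 0.23 ± 0.30 (adjusted p = 0.540).

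Calreticulin (Calr) and calnexin (Canx) are the soluble and the membrane-bound lectin chaperones of the same glycoprotein cycle. They lay on opposite sides of vehicle at both times, and both were called at day 14. Calr (chromosome 8, 84841850 to 84846934) was at 1134, 559.8, 559 and 971 CPM in relapse. It was at 602, 516 and 495 CPM in AG120 and 687, 802 and 827 CPM in vehicle at day 5, and at 416 and 422 CPM in AG120 and 833 and 737 CPM in vehicle at day 14. AG120 libraries were below vehicle libraries at both times. The difference was −0.52 ± 0.23 at day 5 (adjusted p = 0.0826) and −0.91 ± 0.28 at day 14 (adjusted p = 0.0224). Leaving out any of the 4 day 14 libraries ended the second call, at adjusted p-values of 0.106 and 0.102 without AG120 replicates 1 and 2, and 0.104 and 0.0559 without vehicle replicates 1 and 2. At day 5 Calr was called lower by DESeq2 (−0.55, adjusted p = 0.0477). It was also called by edgeR with no filter (−0.56, 0.00399) and with the day 5 libraries alone (−0.54, 6.24e-07). Limma-voom, RLE scaling, no ribosomal models and the replicate block did not call it at day 5. In relapse Calr was 0.76 ± 0.19 higher than under AG120 (adjusted p = 0.00351) and differed from vehicle by 0.05 ± 0.19 (adjusted p = 0.949).

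Canx (chromosome 11, 50293961 to 50325673) was at 299.8, 203, 204 and 314 CPM in relapse. It was at 443, 397 and 394 CPM in AG120 and 257, 259 and 250.01 CPM in vehicle at day 5, and at 367 and 409.7 CPM in AG120 and 256 and 241 CPM in vehicle at day 14. All AG120 libraries were above all vehicle and relapse libraries. Canx rose by 0.69 ± 0.15 at day 5 (1.61-fold, adjusted p = 0.00195) and by 0.64 ± 0.19 at day 14 (adjusted p = 0.0136). The day 14 call was lost without AG120 replicate 2 (adjusted p = 0.0997), vehicle replicate 1 (0.0604) or vehicle replicate 2 (0.0950). Relapse was below AG120 (log2 fold change −0.65 ± 0.13, adjusted p = 0.000426) and differed from vehicle by 0.02 ± 0.13 (adjusted p = 0.973).

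Dnajb9, or ERdj4, is a cochaperone that brings BiP to misfolded clients and to IRE1. It was at 6.03, 8.002, 14.8 and 7.30 CPM in relapse. At day 5 it was at 8.51, 6.88 and 4.78 CPM in AG120 and 13.8, 11.7 and 8.88 CPM in vehicle, and at day 14 at 2.68 and 2.20 CPM in AG120 and 8.04 and 7.45 CPM in vehicle. AG120 libraries were below vehicle libraries at both times, and relapse replicate 3 was the highest of all. Its difference was −0.76 ± 0.29 at day 5 (adjusted p = 0.0508), just above the threshold, and −1.68 ± 0.46 at day 14 (adjusted p = 0.0102), not called once AG120 day 14 replicate 2 was left out (adjusted p = 0.0991). At day 5 Dnajb9 was called lower by limma-voom (adjusted p = 0.0470) and by edgeR with RLE scaling (0.0446) or no ribosomal models (0.0461). The same held for edgeR with no filter (0.00604) or with the day 5 libraries alone (0.00140). DESeq2 and the replicate block did not call it. Dnajb9 was 1.18 ± 0.29 higher in relapse than under AG120 (adjusted p = 0.00238).

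The remaining 6 chaperones were not called against vehicle at either time in the fit over all libraries. With the libraries of each comparison alone, edgeR called Sdf2l1 lower at day 5 (−0.44, adjusted p = 0.0109) and day 14 (−0.55, adjusted p = 0.0397), and Hyou1, an ER Hsp70 relative that frees BiP of its nucleotide, lower at day 14 (−0.45, adjusted p = 0.0140). Over all libraries, the log2 differences of the 6 ran from −0.42 for Sdf2l1, a partner of ER Hsp40 proteins, to 0.20 for Manf, a secreted ER stress protein, at day 5. At day 14 they ran from −0.53 for Sdf2l1 to 0.34 for Dnajb11, or ERdj3. Hsp90b1, or GRP94, the ER form of Hsp90, was at 308 and 326 CPM under AG120 and at 387 and 319.7 CPM under vehicle at day 14. Counts of Hsp90b1 and Manf are uncertain because other genes overlap them and the use of strand in counting is unknown here. Of these 6, Dnajc3 (p58IPK), a cochaperone of BiP that carries an ERSE, was called in relapse against AG120, at 0.40 ± 0.16 (adjusted p = 0.0438). Its libraries were at 71.1, 42.9, 36.2 and 62.2 CPM in relapse and 38.4 to 42.7 CPM under AG120, and the difference was 0.23 without relapse replicate 1 (adjusted p = 0.182). The Dnajc3 call was also lost without relapse replicate 4 (adjusted p = 0.128) and without any of the 5 AG120 libraries (adjusted p = 0.0661 to 0.106). The summed level of the 10 chaperones was 1993 to 2315 CPM in AG120 and 1962 to 2200 CPM in vehicle at day 5, with overlap. At day 14 it was 1804 to 1932 CPM in AG120 and 2005 to 2269 CPM in vehicle, without overlap. The day 14 gap rested on Calr, at 416 and 422 CPM in AG120 and 833 and 737 CPM in vehicle. It does not show a fall shared by the 10 genes, of which 1 was called higher and 2 lower at day 14.

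Of the 7 disulfide enzymes, 0 passed at either time by edgeR's quasi-likelihood test over all libraries. At an unadjusted p under 0.05 the count was 0 at day 5 and 1 at day 14, DESeq2 gave 0 and 1, and limma-voom gave 0 at both. With the libraries of each comparison alone, edgeR called Pdia4, P4hb and Ero1lb lower at both times, Creld2 lower at day 5 and Pdia6 lower at day 14, with log2 fold changes of −0.31 to −1.10 at day 5 and −0.53 to −1.98 at day 14 (adjusted p = 0.000676 to 0.0484). The gene behind the single count at day 14 was Ero1lb, an oxidase that recharges protein disulfide isomerase. It was at 6.98, 3.91, 3.57 and 5.02 CPM in relapse. It was at 2.28, 0.839 and 3.03 CPM in AG120 and 5.12, 3.75 and 4.39 CPM in vehicle at day 5, and at 0 and 1.598 CPM in AG120 and 5.70 and 1.79 CPM in vehicle at day 14. The 0 in AG120 day 14 replicate 1 allows up to 0.894 CPM, the worth of 3 counts, which covers counting error only. Ero1lb differed from vehicle by −1.09 ± 0.51 at day 5 (adjusted p = 0.105) and by −1.98 ± 0.80 at day 14 (adjusted p = 0.0668). All relapse libraries were above all AG120 libraries, and relapse was 1.79 ± 0.48 higher (adjusted p = 0.0056). That value was 4.63 without AG120 day 14 replicate 2, when the library at 0 alone stands for its group.

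The abundant isomerases changed little at day 5. P4hb, the classical protein disulfide isomerase, and Pdia6, which carries an ERSE, differed from vehicle by −0.28 ± 0.26 and −0.17 ± 0.33 at day 5, and by −0.61 ± 0.32 (adjusted p = 0.165) and −0.51 ± 0.41 (adjusted p = 0.373) at day 14. At day 14 their AG120 libraries, at 87.9 and 97.1 CPM for P4hb and 85.8 and 113 CPM for Pdia6, were all below the vehicle libraries, at 135 and 147 CPM and 138 and 146 CPM. Pdia3 (ERp57), the partner of calnexin and calreticulin, differed by 0.04 ± 0.24 and −0.06 ± 0.30 at the 2 times. Creld2, an ER protein with an ERSE, had −0.54 ± 0.29 at day 5 (adjusted p = 0.150), and Ero1l, the other oxidase, 0.02 ± 0.42. Pdia4 (ERp72) was called in relapse against AG120, at 0.76 ± 0.23 (adjusted p = 0.0133), with 120.9, 46.9, 60.1 and 101 CPM in relapse and 45.0 to 55.2 CPM under AG120. Its relapse replicate 2 lay within the AG120 range. The 7 genes summed to 402 to 451 CPM in AG120 and 532 to 570.2 CPM in vehicle at day 14.

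The degradation genes split as the lectins did. Derl1 encodes derlin-1, a channel component through which misfolded proteins leave the ER (chromosome 15, 57869502 to 57892448). It was at 26.6, 20.3, 23.5 and 30.1 CPM in relapse. At day 5 it was at 43.0, 39.1 and 39.7 CPM in AG120 and 24.4, 27.7 and 28.5 CPM in vehicle, and at day 14 at 53.6 and 47.5 CPM in AG120 and 25.3 and 28.8 CPM in vehicle. The AG120 libraries lay above every vehicle and relapse library. Derl1 rose by 0.59 ± 0.14 at day 5 (1.51-fold, adjusted p = 0.00321) and by 0.90 ± 0.18 at day 14 (1.87-fold, adjusted p = 0.000827). Relapse was below AG120 (log2 fold change −0.85 ± 0.12, adjusted p = 1.85e-05) and differed from vehicle by −0.10 ± 0.12 (adjusted p = 0.794). Its paralog Derl2 differed from vehicle by −0.34 ± 0.20 and 0.01 ± 0.25.

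Edem1, a lectin that trims mannose from misfolded glycoproteins and a classical XBP1 target, was at 17.7, 9.42, 7.14 and 13.8 CPM in relapse. It was at 5.02, 6.37 and 6.06 CPM in AG120 and 8.81, 9.82 and 10.1 CPM in vehicle at day 5, and at 5.36 and 1.998 CPM in AG120 and 11.8 and 8.96 CPM in vehicle at day 14. AG120 libraries were below vehicle and relapse libraries at both times. The log2 difference was −0.72 ± 0.31 at day 5 (adjusted p = 0.0750) and −1.58 ± 0.44 at day 14 (adjusted p = 0.0107). At day 5 edgeR called Edem1 lower with no filter (−0.76, adjusted p = 0.0103) and with the day 5 libraries alone (−0.75, 0.000739). The day 14 value was −0.96 without AG120 day 14 replicate 2 (adjusted p = 0.182), and its call was also lost without vehicle day 14 replicate 1 (adjusted p = 0.0692). In relapse Edem1 was 1.41 ± 0.28 higher than under AG120 (adjusted p = 0.000449). Edem2, its relative, was at 12.1, 6.58, 6.45 and 12.1 CPM in relapse and 3.80 to 6.08 CPM under AG120, a difference of 0.88 ± 0.24 (adjusted p = 0.00571) with no overlap. Against vehicle it was lower by values that missed the threshold, −0.50 at day 5 (adjusted p = 0.162) and −0.91 ± 0.38 at day 14 (adjusted p = 0.0723). With the libraries of each comparison alone, edgeR called Edem2 lower at day 5 (−0.53, adjusted p = 0.0205) and day 14 (−0.94, adjusted p = 0.0242).

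Selenos, a selenoprotein that recruits Vcp to the ER membrane, was at 99.6, 51.04, 59.9 and 96.8 CPM in relapse. It was at 56.4, 63.6 and 52.6 CPM in AG120 and 65.2, 75.9 and 75.3 CPM in vehicle at day 5, and at 40.5 and 39.6 CPM in AG120 and 64.4 and 66.9 CPM in vehicle at day 14. AG120 was below vehicle in every library at both times. The difference was −0.33 ± 0.20 at day 5 (adjusted p = 0.212) and −0.71 ± 0.26 at day 14 (adjusted p = 0.0418). That call was lost without AG120 replicate 1 (0.135) or 2 (0.166) or vehicle replicate 1 (0.106) or 2 (0.142). Relapse was 0.68 ± 0.17 higher than AG120 (adjusted p = 0.00336). Herpud1, an ERSE-II gene that organises the retrotranslocation complex, was at 43.0, 35.7, 32.7 and 45.1 CPM in relapse, 26.9 to 29.8 CPM under AG120 and 31.2 to 37.5 CPM under vehicle. It was 0.46 ± 0.11 higher in relapse than under AG120 without overlap (adjusted p = 0.00247), and differed from vehicle by −0.22 ± 0.13 and −0.30 ± 0.17 at day 5 and day 14. By edgeR's quasi-likelihood test over all libraries, the ubiquitin ligase pair Syvn1 (Hrd1) and Sel1l, the lectin Os9 and the segregase Vcp were not called in any comparison. The values nearest the threshold were those of Vcp at day 5, 0.25 ± 0.10 (adjusted p = 0.0581), and of Os9 in relapse against AG120, 0.24 ± 0.10 (adjusted p = 0.0587). DESeq2 called Vcp (adjusted p = 0.0318) and Os9 (−0.31, adjusted p = 0.0495) at day 5 and Os9 in relapse against AG120 (adjusted p = 0.0353), as did RLE scaling for the last (adjusted p = 0.0402). Vcp at day 5 was also called by limma-voom (adjusted p = 0.0448), and edgeR with the day 5 libraries alone called Vcp (adjusted p = 0.00611) and Os9 (adjusted p = 0.00372). The same fit of the day 5 libraries alone called Selenos (−0.35, adjusted p = 0.00156), Herpud1 (−0.24, 0.0431) and Derl2 (−0.36, 0.0360) lower. Derl2, Syvn1 and Vcp overlap other genes with counts of their own.

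In the translocon, through which nascent chains enter the ER, Sec61b, the small β subunit, was at 70.1, 36.1, 39.0 and 84.0 CPM in relapse. It was at 44.8, 45.6 and 45.3 CPM in AG120 and 53.4, 67.1 and 64.3 CPM in vehicle at day 5, and at 22.1 and 34.8 CPM in AG120 and 65.3 and 60.4 CPM in vehicle at day 14. AG120 libraries were below vehicle libraries at both times, and relapse replicates 2 and 3 lay within the AG120 range. The difference was −0.45 ± 0.27 at day 5 (adjusted p = 0.209) and −1.13 ± 0.35 at day 14 (adjusted p = 0.0228). At day 5 edgeR called Sec61b lower with no filter (−0.48, adjusted p = 0.0382) and with the day 5 libraries alone (−0.47, 6.92e-05). The day 14 call was lost without AG120 replicate 1 (adjusted p = 0.166) or vehicle replicate 1 (0.0879) or 2 (0.0655). Its effect differed between the times by −0.68 ± 0.44 (adjusted p = 0.594), and by −0.65 with relapse left out of the fit (adjusted p = 0.0287), where it was the 1 member called, beside 7.43% of all genes. Relapse exceeded AG120 by 0.67 ± 0.23 (adjusted p = 0.0250), and by 0.42 without relapse replicate 4 (adjusted p = 0.0868); the call was also lost without relapse replicate 1 (0.0754) or AG120 day 14 replicate 1 (0.107). Sec61a1, the pore subunit, and Ssr1, of the translocon-associated complex, differed from vehicle by 0.07 and 0.04 at day 5 and by 0.02 and −0.07 at day 14. Sec61a1 is uncertain, since an overlapping gene model held nearly as many counts.

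Members with and without an ERSE were counted apart. Among the 9 tested members with one, 1 rose and 0 fell at day 5, and 1 rose (Canx) and 1 fell (Calr) at day 14, with a median log2 fold change of −0.14 and −0.16. Among the 21 tested members whose window lacks it, 0 rose and 2 fell at day 5, and 0 rose and 6 fell at day 14, with medians of −0.28 and −0.30. Of all genes tested, 20.1% rose and 19.3% fell at day 5, and 16.8% rose and 17.9% fell at day 14. The difference between the members with and without an ERSE was not tested.

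In relapse the ER genes stood, as a group mean, near vehicle and above AG120, and the 2 comparisons share their relapse libraries and, with the comparisons above, the AG120 and vehicle libraries. Against vehicle, 0 of 35 members passed edgeR's quasi-likelihood test, against 0.183% of all genes, 0.100% higher and 0.0834% lower. At an unadjusted p under 0.05 there were 3, and DESeq2 and limma-voom gave 0 each. The members' median log2 fold change was 0.17 beside 0.02 for all genes, with 28 positive and 7 negative values. Against AG120, 15 of 35 members passed (42.9%), 13 higher and 2 lower, beside 54.0% of all genes, 27.9% higher and 26.1% lower. The share that passed was below that of all genes. The median was 0.38 for members and 0.01 for all genes, with 30 positive and 5 negative values. All relapse libraries lay above all AG120 libraries for 6 members, Ern1, Xbp1, Ero1lb, Herpud1, Edem1 and Edem2, and below them for 2, Canx and Derl1, against 18.3% and 18.9% of all genes. By role, 3 of 5 sensors and transcription factors, 3 of 10 chaperones, 2 of 7 disulfide enzymes, 4 of 10 tested degradation genes and 1 of 3 translocon genes rose, and Canx and Derl1 fell. Leaving out 1 library gave 12 to 22 members, with 22 without relapse replicate 3. With only the libraries of each comparison fitted, 0 members passed against vehicle, beside 0.0602% of all genes, and 14 against AG120, beside 48.9%.

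The relapse mean hides a split among its libraries. Replicate 1 exceeded the mean of the 5 vehicle libraries for 30 of 35 members and replicate 4 for 33, while replicate 2 did so for 8 and replicate 3 for 4. Over all tested genes these shares were 47.6%, 47.4%, 47.9% and 48.8%. The median ratio of members to the vehicle mean was 1.46 in replicate 1, 0.802 in replicate 2, 0.809 in replicate 3 and 1.34 in replicate 4, beside 0.984 to 0.992 for all genes. Replicates 1 and 4 were the highest pair for 29 of 35 members. The same pair was the highest for 29.6% of all genes and replicates 2 and 3 for 29.0%, with 9.55% to 10.8% for each other pair.

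In summed CPM the split ran through every role, but it did not run through every member. The 10 chaperones summed to 3427, 1473, 1610.0 and 2894 CPM in relapse replicates 1 to 4, against 1962 to 2269 CPM in the vehicle libraries. The 7 disulfide enzymes summed to 890.4, 381, 394 and 782 CPM, against 465 to 570.2 CPM in vehicle. Degradation genes differed less, with 708, 579.5, 559.9 and 700.9 CPM, against 579 to 625 CPM in vehicle. Hspa5 had the largest ratio to the vehicle mean in replicate 1, at 2.18 times, and stood at 0.625 times in replicate 2, 0.902 times in replicate 3 and 1.71 times in replicate 4. Dnajb9 went against this pattern, at 0.605, 0.803, 1.49 and 0.732 times the vehicle mean in replicates 1 to 4. Some other members did not follow it, such as Ern1, at 0.985, 1.07, 0.874 and 1.07 times, and Syvn1, at 0.84, 1.07, 0.792 and 1.18 times.

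Relapse was the single group of 5 in which members spread more than other genes did. The median SD of log2 CPM over the 35 members was 0.497 in relapse, beside 0.322 for all genes, and 25 of 35 members exceeded that value for all genes. It was 0.117 in AG120 and 0.134 in vehicle at day 5, and 0.122 in AG120 and 0.0903 in vehicle at day 14, beside 0.182, 0.160, 0.209 and 0.146 for all genes. Some surface markers and granule genes moved with the split, and others did not. Kit was at 18.9, 50.1, 51.9 and 19.1 CPM in relapse replicates 1 to 4, Itgam at 53.4, 13.9, 16.1 and 35.4 CPM, and Mpo, the myeloperoxidase of granulocyte precursors, at 1658, 403, 376 and 965 CPM. Prtn3 and Elane were, like Mpo, highest in replicates 1 and 4. Other genes of the neutrophil list were highest in replicate 2. S100a8 was at 338, 579, 138 and 291 CPM in replicates 1 to 4, and S100a9 at 108, 262, 65.6 and 97.85 CPM. Camp and Ltf were also highest in replicate 2. The part of these genes in the result was not tested, and since the pairs were seen in the data they were not compared by a test.

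**Figure D4:**
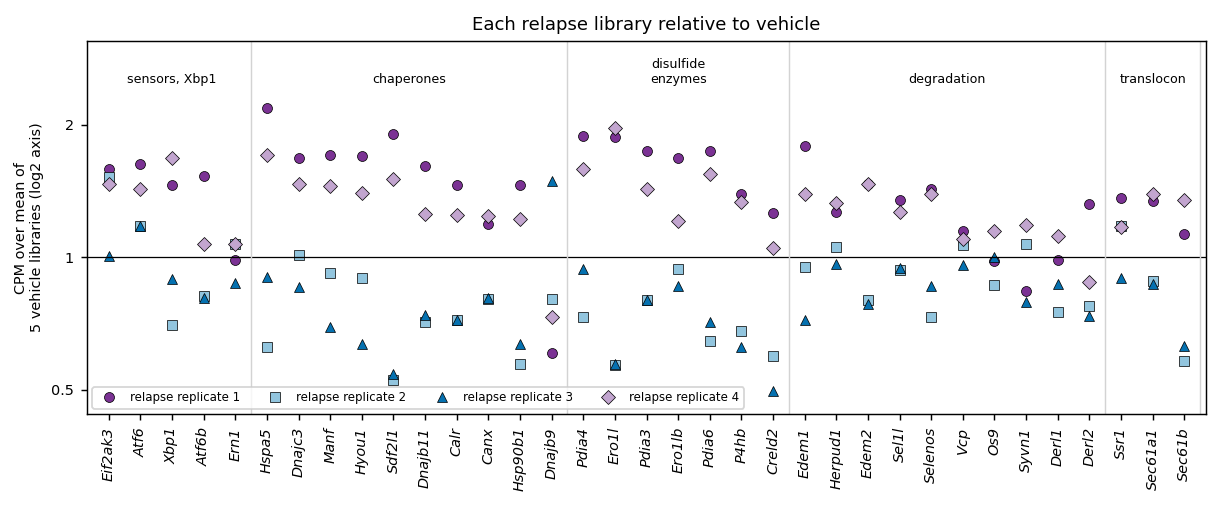
CPM of each tested member in each relapse library over the mean of the 5 vehicle libraries (log2 axis), by role. Replicates 1 and 4 lay above the vehicle mean for 30 and 33 of 35 members, and replicates 2 and 3 for 8 and 4.

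Other genes of the pathway were read in lists chosen by function, 117 genes of which 110 were tested. At day 5, 14 rose and 10 fell under AG120; at day 14, 12 rose and 6 fell; in relapse against AG120, 22 rose and 24 fell. These were 21.8%, 16.4% and 41.8% of the 110 genes, below the 39.5%, 34.7% and 54.0% of all genes tested. For relapse against vehicle and for the difference between the times edgeR's quasi-likelihood test gave 0 each, with 18 and 4 at an unadjusted p under 0.05, and DESeq2 and limma-voom also gave 0 each.

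In the list named for the PERK arm, 3 of the 6 tested rose at each time and 0 fell, and 3 fell in relapse against AG120. The name of the list does not show that PERK acted on these genes, which was not tested. Of all genes, 20.1% rose at day 5, 16.8% rose at day 14, and 26.1% fell in relapse against AG120. In either direction 39.5%, 34.7% and 54.0% of all genes passed, against 50% of this short list in each comparison. Ppp1r15b (CReP), which directs the phosphatase that removes phosphate from eIF2α, was at 44.3, 40.7, 37.2 and 45.5 CPM in relapse. It was at 62.8, 80.5 and 62.3 CPM in AG120 and 36.7, 35.3 and 39.6 CPM in vehicle at day 5, and at 104 and 81.9 CPM in AG120 and 44.6 and 41.0 CPM in vehicle at day 14. No AG120 library overlapped the others. Ppp1r15b rose by 0.88 ± 0.14 (adjusted p = 8.91e-05) and 1.12 ± 0.17 (adjusted p = 7.77e-05), and had a log2 fold change of −0.93 ± 0.11 in relapse against AG120 (adjusted p = 4.33e-06).

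Ddit3 (CHOP), a transcription factor tied to cell death under ER stress, was at 32.1, 16.5, 26.8 and 23.0 CPM in relapse. It was at 38.3, 28.7 and 35.9 CPM in AG120 and 24.6, 21.3 and 23.6 CPM in vehicle at day 5, and at 55.1 and 57.5 CPM in AG120 and 26.4 and 25.5 CPM in vehicle at day 14. AG120 libraries lay above vehicle libraries at both times. Ddit3 rose by 0.57 ± 0.18 at day 5 (adjusted p = 0.0193) and 1.12 ± 0.22 at day 14 (adjusted p = 0.000939). The day 5 call was lost without AG120 replicate 1 (0.0858) or 3 (0.0638) or vehicle replicate 2 (0.0771). In relapse it had a log2 fold change of −0.84 ± 0.15 against AG120 (adjusted p = 0.000199).

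Atf4, the factor translated when eIF2α is phosphorylated, was at 202 and 217 CPM in AG120 and 122 and 127 CPM in vehicle at day 14, a rise of 0.75 ± 0.24 (adjusted p = 0.0258). The Atf4 call was lost without any of the 4 day 14 libraries (adjusted p = 0.0707 and 0.124 without AG120 replicates 1 and 2, 0.124 and 0.102 without vehicle replicates 1 and 2). At day 5 its difference was 0.44 ± 0.20 (adjusted p = 0.0895). Nupr1, a stress-induced cofactor, had 3.59 ± 1.08 at day 5 (adjusted p = 0.0144) on few counts, at most 1.82 CPM in AG120 and 0.110 CPM in vehicle. Trib3 and Ppp1r15a did not pass at either time, and Atf3 and Chac1 were not tested for want of counts.

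**Figure D5:**
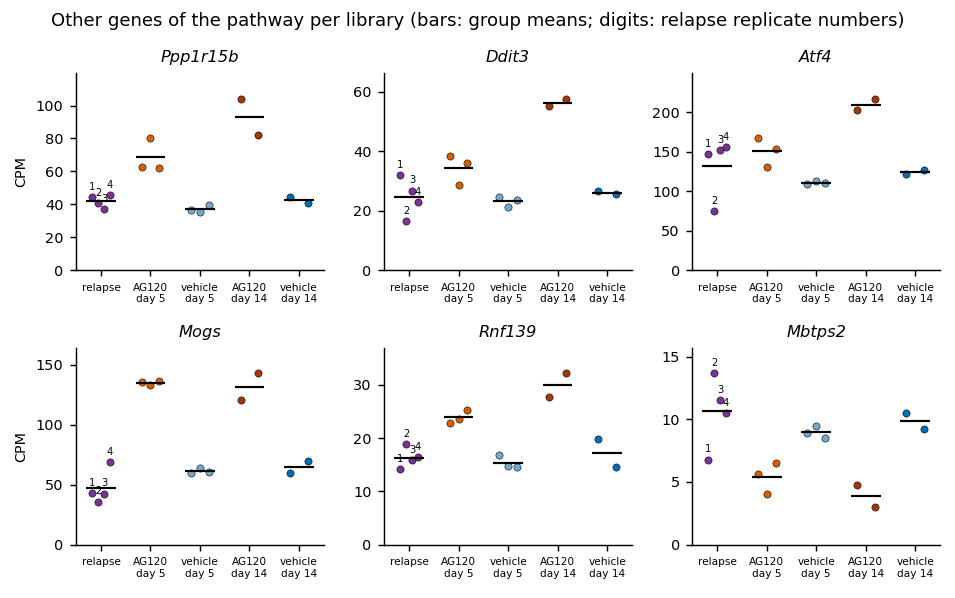
CPM of Ppp1r15b, Ddit3, Atf4, Mogs, Rnf139 and Mbtps2 in every library (dots; bars are group means), with groups in the order relapse, AG120 day 5, vehicle day 5, AG120 day 14, vehicle day 14. Ppp1r15b and Mogs were higher in all 5 AG120 libraries than in every vehicle library, and all their relapse libraries lay below all AG120 libraries.

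Of 11 tested genes for sensor processing and partner transcription factors, 1 rose and 2 fell at day 5, and 0 rose and 2 fell at day 14. These shares, 27.3% and 18.2%, were below the 39.5% and 34.7% of all genes. Mbtps2, the site-2 protease that frees ATF6, had log2 fold changes of −0.73 at day 5 (adjusted p = 0.0262) and −1.38 at day 14 (adjusted p = 0.00472). These calls were lost without AG120 day 5 replicates 1 (0.0594) or 2 (0.121) or vehicle day 5 replicates 1 (0.0556) or 2 (0.0750), and without AG120 day 14 replicate 2 (0.0902). Nfya, the NF-Y subunit that contacts CCAAT, had −0.69 (adjusted p = 0.0119) and −0.82 (adjusted p = 0.0211). For Nfya the first call was lost without AG120 day 5 replicate 1 (0.0575), and the second without AG120 day 14 replicate 2 (0.214) or vehicle day 14 replicate 1, where the value was −0.54 (0.207). Nfyb, another subunit, rose by 0.33 at day 5 (adjusted p = 0.0384) and lost the call without any of 5 of the 6 day 5 libraries, the exception being AG120 replicate 2 (adjusted p = 0.0512 to 0.165), and also with RLE scaling, no filter or no ribosomal models (0.0520, 0.216 and 0.0528).

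Folding helpers outside the member list moved both ways, 3 of 17 up and 4 down at day 5 and 2 up and 3 down at day 14. That was 41.2% and 29.4% of the list, near and below the 39.5% and 34.7% of all genes. Prdx4, an ER peroxiredoxin, rose by 2.09 ± 0.37 (adjusted p = 0.000298) and 1.97 ± 0.47 (adjusted p = 0.00372). Fkbp11, an ER prolyl isomerase, was at 8.51, 6.71 and 5.74 CPM in AG120 and 0.426, 0.331 and 0.877 CPM in vehicle at day 5, a rise of 3.62 ± 0.69 (adjusted p = 0.000753). At day 14 it was at 0.596 and 0.999 CPM in AG120 and 0.584 and 1.66 CPM in vehicle, a difference of −0.44 ± 1.08 that did not pass (adjusted p = 0.787). Txndc12, a thioredoxin-like ER oxidoreductase, had −1.35 at day 5 and −1.61 at day 14, the second lost at day 14 without replicate 2 of AG120 (adjusted p = 0.101) or replicate 2 of vehicle (0.0929). Cnpy2 had −0.63 and −0.85, the second lost without AG120 day 14 replicate 1 (0.0675) or vehicle day 14 replicate 2 (0.0748). Tmx1, a membrane-bound oxidoreductase, rose by 0.46 at day 5, lost without vehicle day 5 replicate 1 (0.0501), and by 0.73 at day 14, against 0.44 without AG120 day 14 replicate 2 (0.0822). Txndc11 at day 5 had −0.54 and Tmx3 at day 14 −0.56; the first call was lost without 4 of 6 libraries, AG120 replicates 2 and 3 and vehicle replicates 1 and 3 (0.0606 to 0.104), and the second without 3 of 4, all but AG120 replicate 1 (0.0668 to 0.177).

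In the glycan list Mogs, glucosidase I, which removes the first glucose before the calnexin cycle, was at 42.8, 35.7, 42.4 and 68.5 CPM in relapse. It was at 135, 133 and 136 CPM in AG120 and 59.3, 63.6 and 60.3 CPM in vehicle at day 5, and at 120.10 and 143 CPM in AG120 and 59.5 and 69.9 CPM in vehicle at day 14. AG120 libraries stood apart from all others. Mogs rose by 1.141 ± 0.18 (adjusted p = 0.000101) and 1.02 ± 0.22 (adjusted p = 0.00177), and relapse against AG120 gave −1.48 ± 0.15 (adjusted p = 5.75e-07). Uggt1, which returns glucose to unfolded glycoproteins, had −0.62 at day 14 (adjusted p = 0.0328), lost without any of the 4 day 14 libraries (0.182 and 0.0706 without AG120 replicates 1 and 2, 0.131 and 0.0862 without vehicle replicates 1 and 2). In all, 1 of 13 rose at each time, and 0 fell at day 5 and 1 at day 14. These shares, 7.69% and 15.4%, were below the 39.5% and 34.7% of all genes.

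In the other degradation list, 4 of 22 rose and 2 fell at day 5, and 6 rose and 0 fell at day 14. That was 27.3% of the list at each time, below the share of all genes tested (39.5% and 34.7%). Rnf139, a ubiquitin ligase of the ER membrane, rose by 0.64 and 0.81, and lost the second call without vehicle day 14 replicate 2 (adjusted p = 0.0558). Aup1, which recruits a ubiquitin-conjugating enzyme, rose by 0.71 at day 14, a call lost without vehicle day 14 replicate 1 (0.0551). At day 5 Ube2j2, a ubiquitin-conjugating enzyme, rose by 0.55, and Ngly1, the cytosolic N-glycanase, by 0.92, lost without AG120 replicate 2 (0.0885) or vehicle replicate 2 (0.0575) or 3 (0.0979). Tmub1 and the lectin Erlec1 fell by 0.62 and 0.58 on the log2 scale.

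Of 22 other translocon and signal peptide genes, 1 rose and 2 fell at day 5, which was 13.6% against 39.5% of all genes. Srp19, of the signal recognition particle, had 0.80, Tram1 −0.50 and Sec62 −0.37, and each lost its call without at least 1 day 5 library. For Srp19 this was vehicle replicate 1 (adjusted p = 0.0579), for Tram1 AG120 replicate 2 (0.0545) or vehicle replicate 2 (0.0531), and for Sec62 AG120 replicates 2 (0.0529) or 3 (0.101) or vehicle replicate 1 (0.0717). At day 14 the count was 0 by edgeR's quasi-likelihood test, DESeq2 and limma-voom, with 5 at an unadjusted p under 0.05. Among 19 genes for ER exit and retrieval, Lman1, the cargo receptor ERGIC-53, rose by 0.87 ± 0.19 at day 5 (adjusted p = 0.00168). At day 14 that list gave 0 by the same tools, with 1 at an unadjusted p under 0.05. The share of the ER exit list was 5.26% at day 5, and all genes stood at 39.5% at day 5 and 34.7% at day 14.

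In relapse against AG120, the lists gave 4 genes higher and 1 lower for sensor processing, 6 and 2 for folding helpers, 1 and 3 for glycans, 3 and 4 for translocon and signal peptide genes, 3 and 10 for degradation, and 5 and 1 for ER exit. In that order these were 45.5%, 47.1%, 30.8%, 31.8%, 59.1% and 31.6% of the tested genes, against 54.0% of all genes. Named here are the genes with the largest changes that kept their call under every alternative tried. Relapse was higher for Mbtps2 (log2 fold change 1.24), Txndc12 (1.27), Cnpy2 (0.67), Txndc11 (0.65), Uggt1 (0.49), Tram1 (0.48), Erlec1 (0.81) and Mcfd2 (1.16), the partner of Lman1 in cargo export. It was lower for Prdx4 (−2.47), Tmx1 (−0.79), Srp19 (−0.73), Spcs1 (−0.53), of the signal peptidase, Dad1 (−0.49), of the oligosaccharyltransferase, Aup1 (−0.82), March6 (−0.73), a ubiquitin ligase of the ER membrane, and Lman1 (−0.56). Atf4, Creb3, Nfya, Nfyb, Stt3b, Serp1, Ssr3, Srp54a, Rnf185, Tmub1, Yod1, Sec23a and Tmed10 also passed, but lost the call under at least 1 alternative.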

How the data were processed

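RNA from sorted cKit+CD11b- cells of 14 mice was sequenced with QuantSeq 3′ libraries, per the labels' protocols, and raw counts per gene were deposited by the authors in 1 table. Named in the submitters' processing notes are the aligner HISAT2 2.1.0, featureCounts from Subread 1.6.3, the genome build mm10, cutadapt 1.14, bcl2fastq 2.17.1.14, edgeR 3.28.1, limma 3.42.2 and R 3.6.2. Not given in the sources used here were the use of strand in counting, the treatment of reads with several matches and the use of molecular identifiers, so genes that overlap others (Hsp90b1, Manf, Sec61a1, Vcp, Syvn1, Derl2 and Eif2ak3 among the members) or have near-identical copies (Srp54a) are uncertain. Identifiers were given symbols and GRCm38 positions from a gene annotation, which named 52403 of 52636.

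Genes were kept with filterByExpr (minimum count 10) and tested in R 4.3.3 with edgeR 4.0.16: TMM scaling, a robust quasi-likelihood fit with 1 coefficient per group over all 14 libraries (9 residual degrees of freedom), and Benjamini-Hochberg adjustment over 11994 genes. SE is the log2 fold change over the root of F. Relapse was set against the mean of both vehicle groups and the mean of both AG120 groups. CPM uses TMM-scaled totals, ribosomal models included (scaling factors 0.672 to 1.33), and counts outside those models were 1259982 to 3358874 per library, which limits low genes. The labels give 1 library per mouse, so p-values measure the spread between mice, and no replicate pair agreed within sampling noise. That spread was estimated over all 14 mice together, so p-values of AG120 against vehicle also carry the spread of the relapse mice. Alternatives were DESeq2 1.42.0, limma-voom (limma 3.58.1), RLE scaling, no filter, no ribosomal models, only the groups compared, a replicate block, and each library left out in turn. The procedure was tested on simulated counts.

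The members and lists were chosen with earlier results of these data known. Sensors, Xbp1 and Hspa5 are given in full, as are up to 6 members per direction and comparison among those that passed. Of each other list, up to 3 genes per direction and comparison are named by size of change among those that passed, and 1 gene that this rule names is not reported here. Promoter windows are RefSeq's (GRCm38.p6), with Ero1l and Ero1lb matched as their newer symbols.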

Additional observations from a re-analysis of the deposited data

How the results depend on the processing

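Each count of members was recomputed under every alternative named in the processing, and no value changed sign among those called. At day 5, 4 members passed, against 7 with DESeq2, 9 with no filter on low counts and 20 when the fit held only the groups compared. At day 14, 9 passed, against 16 with only the groups compared. The difference between the times gave 0, and 1 (Sec61b) with only the groups compared. Leaving out each library in turn gave 4 to 5 members at day 5, 4 to 6 at day 14, 0 for the difference, 0 for relapse against vehicle and 12 to 22 for relapse against AG120. In the last comparison the counts were 12 without relapse replicate 1, 19 without replicate 2, 22 without replicate 3 and 13 without replicate 4. Over all genes, the difference between the times gave 112 genes, 13 to 61 with a library left out and 869 with only the groups compared.

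The replicate numbers are shared by the groups' labels, but same-numbered libraries did not deviate together (correlations of −0.206 to 0.109 over 23 pairs, against −0.214 to 0.252 over 54 pairs of different number). With the replicate block, 4 members passed at day 5, 9 at day 14, 0 for the difference, 0 for relapse against vehicle and 12 for relapse against AG120, where Atf6 (adjusted p = 0.0658), Dnajc3 (0.132) and Sec61b (0.122, log2 fold change 0.42) were not called.

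The 4 day 5 calls (Ern1, Xbp1, Canx and Derl1) held under all 13 alternatives and the day 14 calls of Ern1 and Derl1 under all 11. Of the 15 calls in relapse against AG120, 12 held under all 16. Scaling alternatives moved the median of all genes by at most 0.0278 on the log2 scale. Leaving out a day 14 library leaves 1 library in its group, which is then assumed to vary like the other groups. At this depth low members such as Ero1lb, Edem1 and Eif2ak3 rest on few counts, and a difference of the size of their SE was not detectable.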
